A study of Homo sapiens with 26 samples.

Results

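JAG1-Fc beads were set against continued DAPT in MDA-MB-468, a long-established line of human triple-negative breast cancer cells with basal features. The comparison took 6 of the 26 arrays, chosen by their treatment labels alone: 3 from cells given beads coated with JAG1-Fc and 3 from cells kept in DAPT, all from the 18 arrays of an agonism experiment. It asked how gene expression differs when a Notch ligand is offered and when Notch signalling is held off.

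Notch receptors are cell-surface proteins that are cut when a ligand on a neighbouring surface, such as JAG1, binds and pulls on them. A final cut by gamma-secretase frees the intracellular part, which enters the nucleus, joins the DNA-binding protein RBPJ and a Mastermind protein, and switches on targets such as the HES and HEY repressors. DAPT inhibits gamma-secretase. In the breast, Notch signalling is known for its part in the balance of basal and luminal cells, and in several cancers MYC is among its direct targets.

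Cells of both groups had first been held in 5 µM DAPT for 16 h and then in plain medium for 2 h. One group then received JAG1-Fc beads, the other 5 µM DAPT. A control group received beads coated with Fc alone, another a control IgG at 20 µg/ml, and a DMSO group (0.05%) had never been given DAPT. A further group received the NOTCH3 antibody A13 at 20 µg/ml after the same washout. It is not compared here but was part of the joint fit. DAPT and DMSO were each renewed at 22 h, and every array is labelled 24 h, so the DAPT plates also differed from the bead plates by a late addition whose part in the results cannot be told apart. JAG1-Fc beads differ from Fc beads by the ligand, whereas they differ from DAPT by ligand, beads and removal of the inhibitor together. Whether the 3 arrays of each group are from separate cultures is not in the labels, so the p-values reflect only how these samples spread, and that spread may be technical. In bulk RNA, a change in the share of cells of a kind and a change in RNA per cell cannot be told apart.

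The tests covered 19775 genes, each through its brightest probe set. Values are log2 intensities, and differences are log2 differences of group means with their standard error (SE; 3 arrays against 3). A gene rose or fell where limma's adjusted p was under 0.05. Array medians in the agonism experiment lay between 6.84 and 6.88. Epithelial markers of the line were bright over the 9 JAG1-Fc, Fc and DAPT arrays: EPCAM, an epithelial adhesion protein, lay between 13.60 and 13.85, and KRT18, a simple-epithelium keratin, between 13.80 and 14.29. PTPRC, the pan-leukocyte marker, and LUM, a stromal proteoglycan, lay below the lower quartile of all probe sets on all 9. The other 7 measured markers of other cell types lay above it: in the DAPT group CD14 averaged 9.60, COL1A1 9.50, PECAM1 8.73, CD3E 7.85, DCN 7.63, ACTA2 7.21 and CDH5 6.62. Of all 9 markers, 1 rose (CD14, 0.25, a call lost without some single arrays) and 1 fell (CDH5, -0.72), and their part in the results was not tested.

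Between JAG1-Fc beads and DAPT, 6556 of 19775 genes differed, 33.2% of those tested. With JAG1-Fc beads 3366 were higher (17.0%) and 3190 lower (16.1%). Most differences were small: 141 genes rose (0.713%) and 169 fell (0.855%) by 2-fold or more. The median log2 difference of all genes was 0.03. With Fc beads, which share the DAPT arrays, 4182 genes differed from DAPT (21.1%), and between JAG1-Fc and Fc beads 1603 genes differed (8.11%). The last count was less stable: it was 897 without Fc replicate 2, 1059 without JAG1-Fc replicate 1 and 907 with only those groups in the fit. The difference from DAPT is therefore given below in 2 steps, from DAPT to Fc beads and from Fc to JAG1-Fc beads.

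NRARP, a small ankyrin protein that is induced by Notch and dampens it, was the Notch target with the largest rise. It measured 7.77, 8.02 and 7.97 in the DAPT arrays and 9.45, 9.36 and 9.42 in the JAG1-Fc arrays. The groups did not overlap, and the difference was 1.49 ± 0.07 (adjusted p = 1.52e-11), or 2.81-fold. The Fc bead arrays lay between, at 8.50, 8.41 and 8.30. The step from DAPT to Fc beads was thus 0.48, 32.3% of the whole, and the step from Fc to JAG1-Fc beads 1.01 (adjusted p = 4.07e-08).

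HES1, a repressor and classic Notch target, split differently. Its values were 10.03, 10.01 and 10.10 with DAPT and 11.03, 10.84 and 11.02 with JAG1-Fc beads, a rise of 0.92 ± 0.06 (adjusted p = 3.08e-09). The Fc bead arrays, at 10.70, 10.74 and 10.78, lay 76.0% of the way from DAPT. The further step to JAG1-Fc beads was 0.22 (adjusted p = 0.0394). A dimmer HES1 probe set, with a mean of 6.14 over the arrays, gave a difference of -0.11 that did not pass.

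Among the other targets, HES4 rose by 0.66, HEY2 by 0.49, HEY1 by 0.38 and HES2 by 0.32, while HES6, a HES family member that can oppose HES1, had a difference of -0.16, a call that was lost without some single arrays. HEY2 was at 0.23, not passing, with a dim probe set (mean 5.04) not shared among transcripts. HES5, HES7, HEYL and DTX1 did not pass, with differences of -0.05, 0.14, 0.09 and -0.08. In all, 6 of 11 targets rose and 1 fell, with a median difference of 0.32, where 17.0% of all genes rose and 16.1% fell. Without probe sets that can detect related transcripts (names ending in _x_at or _s_at), 3 of 9 were higher and 1 lower (median 0.14), and over the 5 targets above the median level of all genes the median was 0.66. Between JAG1-Fc and Fc beads 2 of the 11 rose, NRARP and HES1, and none fell, where 2.96% of all genes rose and 5.14% fell. The median of that step was 0.10.

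The DMSO group, which had never met DAPT, was not the top of the range for these genes. JAG1-Fc beads exceeded DMSO by 1.30 for NRARP, by 0.53 for HES1 and by 0.48 for HES4, and 5 of the 11 targets were higher than in DMSO and none lower, where 23.1% of all genes were higher and 16.9% lower. Control IgG after the same washout, with no beads, exceeded DAPT by 0.67 for HES1 and 0.41 for NRARP.

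**Figure D1:**
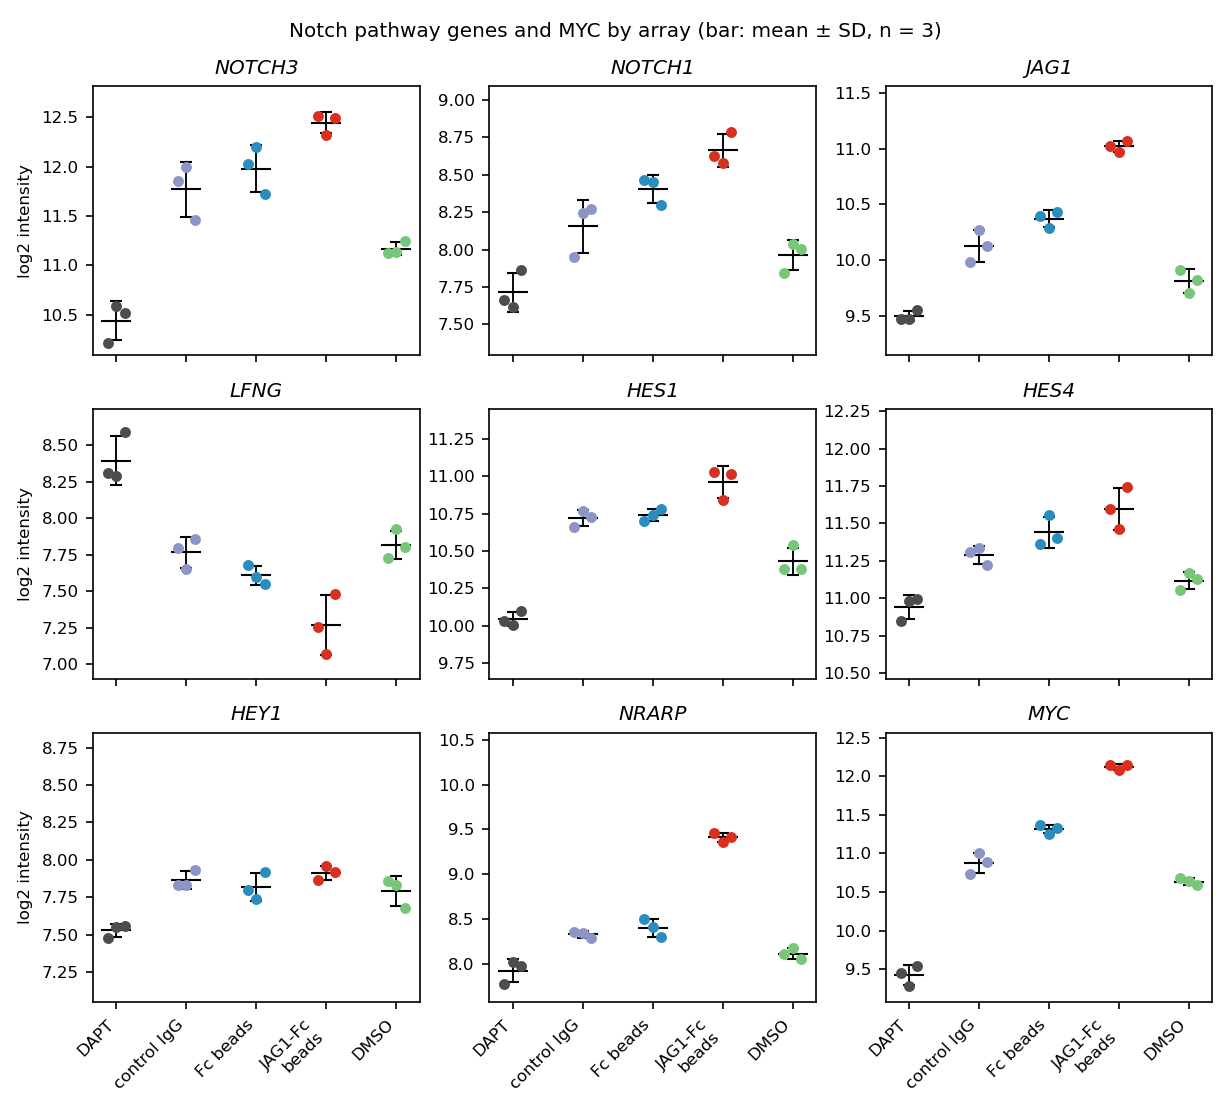
Log2 intensity (vertical, a separate range for each gene) of Notch pathway genes and MYC in each DAPT, control IgG, Fc bead, JAG1-Fc bead and DMSO array, with points for arrays and bars for the mean ± SD (n = 3). NRARP in the JAG1-Fc arrays (9.36 to 9.45) lies above all other groups, whereas HES1 in the Fc bead arrays (10.70 to 10.78) lies closer to the JAG1-Fc arrays than to DAPT.

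RBPJ binds the sequence TGGGAA, and promoters from RefSeq (GRCh38.p14) were searched for these letters on both strands over the 250 bases before the start site. Of the 9 Notch target genes searched, 5 held it: HES1, HES4, HES5, HEY2 and HEYL. Each also held the longer form GTGGGAA, which contains the shorter one. HEY1 and DTX1 were not among the 9. Of all 35116 promoters searched, 20.8% held TGGGAA and 5.43% GTGGGAA. Counted by gene, with any promoter of a gene sufficing, the shares were 24.6% and 6.69%. The windows of HES1 (chr3:194136048-194136127, + strand), HES4 (chr1:1000118-1000197, - strand) and HES5 (chr1:2530284-2530363, - strand) are shown because the first 2 genes rose and the last did not pass. All run 5′ to 3′ from base -100 to -21 before the start, with TGGGAA in capitals.
HES1: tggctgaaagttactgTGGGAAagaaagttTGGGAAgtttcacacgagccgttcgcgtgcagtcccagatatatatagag
HES4: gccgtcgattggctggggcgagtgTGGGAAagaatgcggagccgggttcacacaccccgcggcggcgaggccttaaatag
HES5: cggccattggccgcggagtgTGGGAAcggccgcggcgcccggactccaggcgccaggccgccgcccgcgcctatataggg
A match is a description of the letters, not a binding site or a cause. HES5, which did not pass, carries the same letters as HES1 and HES4, and NRARP, with the largest rise of the targets, has none in this window.

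The receptors and ligands themselves moved. NOTCH3 measured 10.21, 10.59 and 10.51 with DAPT and 12.51, 12.32 and 12.50 with JAG1-Fc beads, a rise of 2.01 ± 0.14 (adjusted p = 3.94e-09). The Fc bead arrays were at 12.03, 12.20 and 11.72, and the step from Fc to JAG1-Fc beads, 0.46, did not pass (adjusted p = 0.0525). A dimmer NOTCH3 probe set (mean 8.17) gave a smaller difference between JAG1-Fc beads and DAPT, 0.74. NOTCH1 rose by 0.95 and NOTCH2 by 0.39, and NOTCH4, at 0.11, did not pass.

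JAG1 transcripts rose as well. The beads carry JAG1 as protein, so the probe set reads the cells' own gene. It measured 9.48, 9.47 and 9.55 with DAPT, 10.39, 10.29 and 10.43 with Fc beads and 11.02, 10.97 and 11.07 with JAG1-Fc beads. The 3 groups did not overlap, and the whole difference was 1.52 ± 0.07 (adjusted p = 3.37e-11), of which 0.65 lay between Fc and JAG1-Fc beads (adjusted p = 1.44e-05). JAG2 rose by 0.53 and the ligand DLL1 by 0.29, although another DLL1 probe set was called the opposite way and the mean of its probe sets gave -0.04. DLL3 (0.17) and DLL4 (-0.04) did not pass. Of the fringes, the sugar transferases that tune a receptor's choice of ligand, LFNG fell by 1.13, RFNG rose by 0.29 and MFNG, at 0.09, did not pass.

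Of 15 measured genes of the signalling machinery, 6 rose and 3 fell, where 17.0% of all genes rose and 16.1% fell. The 3 of 15 is close to the latter share. The coactivator MAML2 rose by 0.86, MAML1 by 0.43, the receptor-cutting proteases ADAM10 by 0.33 and ADAM17 by 0.28, RBPJ by 0.27, and FBXW7, which marks the intracellular domain for breakdown, by 0.25. The 3 that fell encode gamma-secretase subunits: PSENEN (-0.70), APH1B (-0.37) and NCSTN (-0.31). APH1B lost its call without _x_at and _s_at probe sets (-0.29, adjusted p = 0.0853), and the subunits APH1A (0.02) and PSEN2 (-0.19) did not pass. The call of FBXW7 was lost with any of several single arrays left out. RBPJ, whose brightest probe set can detect related transcripts, was at -0.11 with a dim probe set (mean 4.62). Another bright RBPJ probe set (mean 10.25), which can also detect related transcripts, rose by 0.23.

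MYC, the growth-promoting transcription factor, was among the largest rises. It measured 9.46, 9.28 and 9.54 with DAPT, 11.36, 11.26 and 11.33 with Fc beads and 12.15, 12.07 and 12.14 with JAG1-Fc beads. Each group stood apart from the next. The whole difference was 2.70 ± 0.07 (adjusted p = 1.41e-14), 6.49-fold, and 70.2% of it lay between DAPT and Fc beads. The step from Fc to JAG1-Fc beads was 0.80 (adjusted p = 9.92e-07), and JAG1-Fc beads exceeded the DMSO group by 1.49.

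Genes of ribosome assembly also rose. Of 19 measured, 18 were higher and none lower, with a median of 0.49, where 17.0% of all genes were higher and 16.1% lower. The RNA helicase DDX21 rose by 0.99, the small-subunit factor WDR43 by 0.88, the nucleolar proteins NOC3L and NOLC1 by 0.70 each, and RRP12, which helps export ribosomal subunits, by 0.59. RRP12 was at 0.12, not passing, without _x_at and _s_at probe sets. Their increments were shared by both steps: 16 rose from DAPT to Fc beads (11.5% of all genes), with a median of 0.24, and 10 from Fc to JAG1-Fc beads (2.96% of all genes), with a median of 0.23. Of 14 measured genes in the MYC network, 7 rose and 3 fell, against 17.0% and 16.1% of all genes, and 3 of 14 is close to the latter. CAD, which starts pyrimidine synthesis, rose by 0.72 and the nucleolar protein NCL by 0.74, while TFRC, the transferrin receptor, fell by 0.58. Without _x_at and _s_at probe sets NCL was at 0.12, not passing, with a much dimmer probe set (mean 6.26 against 12.61).

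The largest rise of all was OLFM4, a secreted glycoprotein known as a marker of intestinal stem cells. It measured 5.42, 5.02 and 5.40 with DAPT, below the lower quartile of all probe sets on those arrays, and 10.04, 10.23 and 10.12 with JAG1-Fc beads. The Fc bead arrays were at 7.79, 7.47 and 7.35, so the 3 groups formed well-spaced levels. The difference was 4.85 ± 0.12 (adjusted p = 1.31e-14), or 28.9-fold as measured. The step from Fc to JAG1-Fc beads was 2.59. The step from DAPT to Fc beads was 2.26, but the DAPT values are not shown to be above background, so that step and the whole difference may be understated and the steps are not ranked.

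ID4, an inhibitor of helix-loop-helix factors found in basal breast cells, followed. Its arrays were 9.48, 9.19 and 9.63 with DAPT and 12.79, 12.53 and 12.87 with JAG1-Fc beads, 3.30 ± 0.12 higher (9.84-fold). LBH, a transcription cofactor of basal mammary cells, rose by 2.80, GAS1, a cell-surface protein that binds hedgehog ligands, by 2.79, the transmembrane glycoprotein GPNMB by 2.79, and NRP1, a co-receptor for semaphorins and VEGF, by 2.47. For GAS1 a second, dim probe set (mean 5.97) gave 0.01. For NRP1 dimmer probe sets gave 0.68, 0.25 and 0.09, the last not passing. The split again varied: the step from DAPT to Fc beads was 86.6% of the rise of LBH and 49.3% of that of GAS1.

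GPNMB and AKR1C3, a steroid-reducing enzyme, had other values in the control groups. GPNMB exceeded DAPT by 2.17 with Fc beads and by 0.31 with control IgG. AKR1C3 exceeded it by 1.20 with Fc beads and differed from it by -0.0032 with control IgG. For OLFM4, ID4, LBH, GAS1 and MYC the IgG value was 1.15 to 2.22. The difference between Fc beads and IgG was not tested, and all these comparisons share the DAPT arrays.

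The 20 largest rises were all also higher with Fc beads than with DAPT (11.5% of all genes), and 13 of them rose further with JAG1-Fc beads (2.96% of all genes). The 7 that did not pass that second step were LBH, SERPINA3, ATF3, CCDC71L, NOTCH3, SLC7A11 and ALDH1L2. The step from DAPT to Fc beads, in which removal of DAPT and the beads cannot be told apart, was 46.5% (OLFM4) to 99.0% (CCDC71L) of the log2 difference, with a median of 78.4%. OLFM4 and LRRC31, one of the falls, lay below the lower quartile of all probe sets in 3 of the 9 arrays each, so their shares rest on dim values. For the 20 largest falls the range was 16.6% (CYP4Z1) to 93.0% (CYP1A1), with a median of 54.6%. Of these falls, 17 went further with JAG1-Fc beads (5.14% of all genes), all but TMPRSS11E, LINC00342 and CYP1A1. All 40 also differed from the DMSO group in the same direction, as 40.0% of all genes did in one direction or the other. Because the 40 were ranked by the sum of both steps on these same arrays, passing a step is in part built in.

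**Figure D2:**
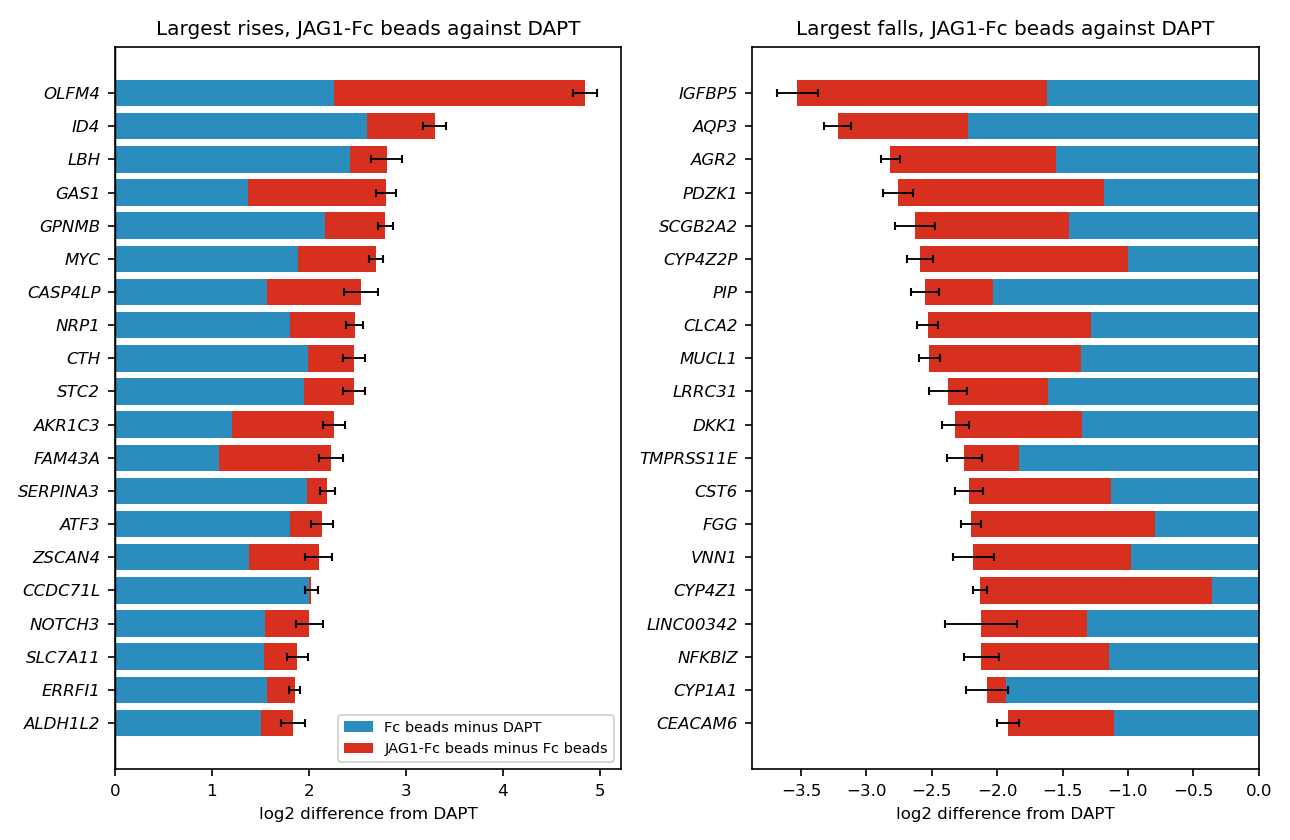
The 20 largest rises (left) and falls (right), as log2 differences from DAPT, each bar split into the step from DAPT to Fc beads (blue) and the step from Fc to JAG1-Fc beads (red), with the SE of the whole difference. The blue part is 99.0% of the bar for CCDC71L and 16.6% for CYP4Z1.

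Luminal secretory products fell. Of 18 measured, 12 were lower and none higher, with a median difference of -1.13, where 16.1% of all genes were lower and 17.0% higher. AGR2, a protein folding factor of secretory cells, measured 12.33, 12.39 and 12.29 with DAPT, 10.75, 10.87 and 10.73 with Fc beads and 9.53, 9.48 and 9.55 with JAG1-Fc beads. The arrays of each group were tight and far apart, and the difference was -2.82 ± 0.07 (adjusted p = 1.41e-14), or 7.05-fold. SCGB2A2 (mammaglobin) differed by -2.63, PIP, a secreted apocrine protein, by -2.55, MUCL1, a small breast mucin, by -2.52, and the adhesion protein CEACAM6 by -1.92. From Fc to JAG1-Fc beads 11 of the 18 fell, where 5.14% of all genes did, with a median of -0.66, and from DAPT to Fc beads 10 fell (9.65% of all genes), with a median of -0.32.

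CYP4Z1, a fatty acid hydroxylase of mammary epithelium, was the fall with the smallest share in the step to Fc beads. It measured 10.44, 10.39 and 10.49 with DAPT, 10.18, 10.05 and 10.02 with Fc beads and 8.29, 8.34 and 8.30 with JAG1-Fc beads. The Fc bead arrays thus sat near DAPT, and the step to JAG1-Fc beads was -1.78 (adjusted p = 6.23e-13). With control IgG CYP4Z1 differed from DAPT by 0.18. CYP4Z2P, its neighbouring pseudogene of closely similar sequence, fell by 2.59, and the 2 may share signal.

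IGFBP5, which binds insulin-like growth factors, had the largest fall. Its arrays were 9.92, 9.70 and 10.13 with DAPT, 8.41, 8.45 and 8.04 with Fc beads and 6.07, 6.41 and 6.69 with JAG1-Fc beads. The difference was -3.53 ± 0.16, 11.5-fold. AQP3, a water and glycerol channel, fell by 3.22 with its brightest probe set (mean 9.18). Its other probe sets, nearly as bright (means 8.87 and 8.80), gave only -1.08 and -0.82, so the size of this fall is uncertain. CLCA2, a protein of chloride-conducting epithelia, changed by -2.53. FGG, the fibrinogen gamma chain, fell by 2.20, of which 36.2% lay between DAPT and Fc beads.

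Luminal transcription factors and keratins moved both ways: of 14 measured, 8 fell and 3 rose, with a median of -0.30. Of all genes, 16.1% fell and 17.0% rose, and 3 of 14 is close to the latter. Without _x_at and _s_at probe sets 4 of 9 fell (median -0.09) and 2 rose. FOXA1, a pioneer factor for luminal genes, measured 10.26, 10.12 and 10.25 with DAPT and 9.19, 9.08 and 9.07 with JAG1-Fc beads, with no overlap (-1.09 ± 0.08). SPDEF, a factor of secretory cells, changed by -0.98 and the luminal keratin KRT8 by -0.86. The luminal progenitor markers KIT and ALDH1A1 rose, by 1.24 and 1.27. So did GATA3, a luminal transcription factor of this list, by 0.34, whereas the factor XBP1 (0.02) did not pass.

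Of 11 measured basal markers, 6 rose and 1 fell, with a median of 0.59, where 17.0% of all genes rose and 16.1% fell. The median was 0.34 without _x_at and _s_at probe sets and 0.32 with the mean of all probe sets of a gene. KRT14, a basal keratin, measured 8.27, 8.11 and 8.17 with DAPT, 8.74, 8.68 and 8.65 with Fc beads and 9.76, 9.83 and 9.89 with JAG1-Fc beads. Its difference was 1.64 ± 0.07 (adjusted p = 5.43e-12), and 1.14 of it lay between Fc and JAG1-Fc beads. KRT5, its partner keratin, rose by 1.61 and vimentin (VIM) by 1.47. VIM varied more: 1 Fc bead array was at 9.55 against 10.28 and 10.41, and its second step did not pass (0.60, adjusted p = 0.0669). ITGB4, the hemidesmosome integrin, fell by 1.02, but was at -0.18, not passing, with a dim probe set (mean 5.47) not shared among transcripts. Its other probe sets were at -0.76, -0.65 and 0.06, the last not passing.

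**Figure D3:**
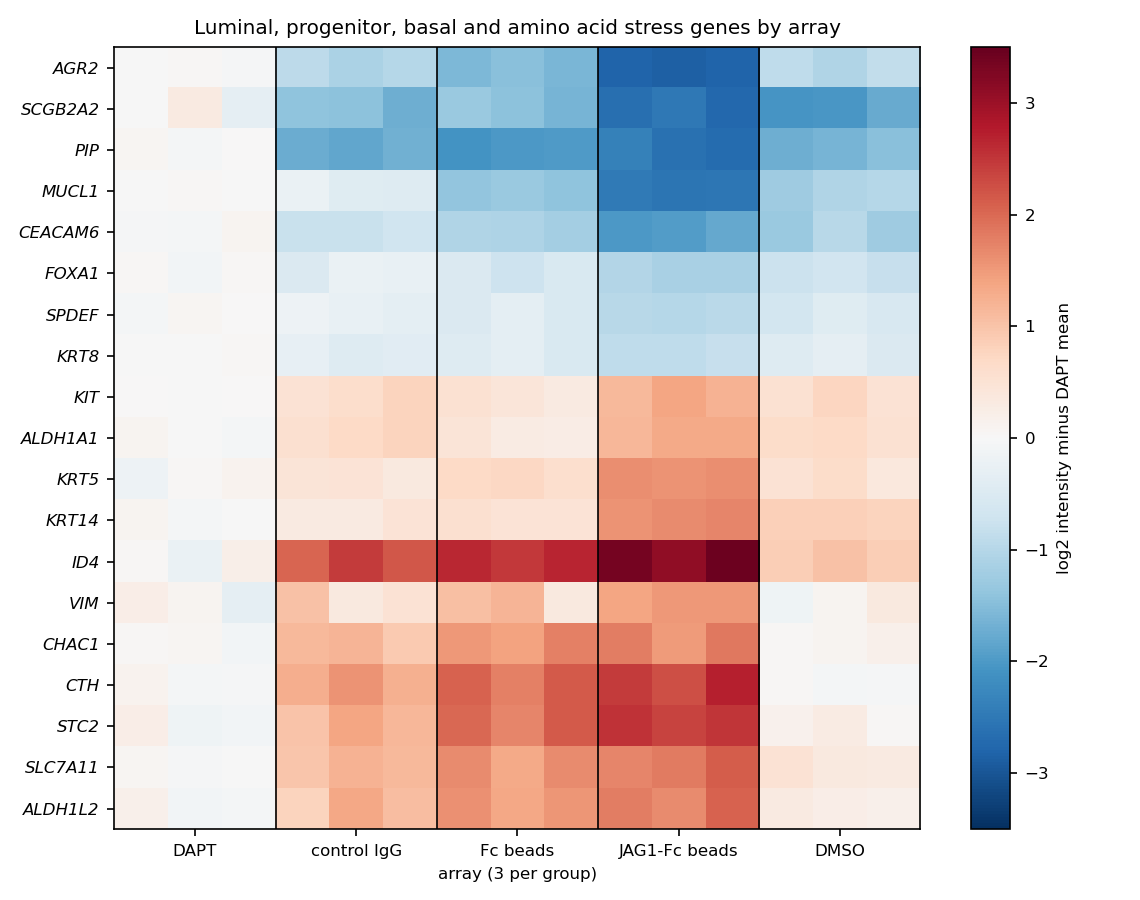
Log2 intensity of luminal, progenitor, basal and ATF4 amino acid stress genes (rows) in the DAPT, control IgG, Fc bead, JAG1-Fc bead and DMSO arrays (columns), as the difference from the gene's DAPT mean (colour). KRT14 and KRT5 are highest and AGR2 and MUCL1 lowest in the JAG1-Fc arrays, and CTH and STC2 in the DMSO arrays are near DAPT.

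Genes of the amino acid stress response driven by ATF4 rose in nearly every case, 19 of 20 with none falling, and a median of 1.15. Of all genes, 17.0% rose and 16.1% fell. CTH, an enzyme of cysteine synthesis, measured 8.21, 8.04 and 8.04 with DAPT, 10.17, 9.85 and 10.25 with Fc beads and 10.54, 10.35 and 10.81 with JAG1-Fc beads. The Fc arrays lay just under the JAG1-Fc arrays and far above DAPT. CTH rose by 2.47 ± 0.12, the secreted hormone STC2 by 2.46, the cystine carrier SLC7A11 by 1.88, the mitochondrial folate enzyme ALDH1L2 by 1.83, and CHAC1, which degrades glutathione, by 1.71. From DAPT to Fc beads all 20 rose (median 1.07), where 11.5% of all genes did. From Fc to JAG1-Fc beads 4 rose and 1 fell (median 0.18), against 2.96% and 5.14% of all genes. With control IgG, which brought no beads, 18 of the 20 exceeded DAPT (median 0.65), where 4.15% of all genes did, 5.62% were lower and 9.77% differed. Against DMSO, 20 of 20 were higher with JAG1-Fc beads (median 1.17), where 23.1% of all genes were.

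The composite ATF and C/EBP element TGATGNAA was searched in the same way. It was found in 3.14% of all promoters and 2 of the 24 promoters of this list (8.33%). By gene, it was found in 3.89% of all genes and 2 of the 16 of this list whose promoters were searched. These were CHAC1 (chr15:40953251-40953330, + strand, bases -220 to -141) and ASNS (chr7:97872429-97872508, - strand, bases -100 to -21). Both are shown as 5′ to 3′ windows with the element in capitals. In CHAC1 it lies on the other strand, and the letters read TTGCATCA.
CHAC1: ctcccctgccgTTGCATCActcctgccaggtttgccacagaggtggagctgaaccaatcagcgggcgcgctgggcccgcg
ASNS: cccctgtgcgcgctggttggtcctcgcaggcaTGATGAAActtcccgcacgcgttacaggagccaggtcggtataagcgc
The other 14 genes had no such letters in this window, CTH and STC2 among them.

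Immediate early and MAP kinase feedback genes also rose, 20 of 27 with 3 falling and a median of 0.61. Of all genes, 17.0% rose and 16.1% fell. ATF3, a stress-induced transcription factor, rose by 2.14, IER5 by 1.60, the MAP kinase phosphatase DUSP1 by 1.48 and the receptor-signalling inhibitor SPRY2 by 1.45, while the phosphatase DUSP2 fell by 1.28. The other, dimmer DUSP1 probe sets (means 6.58 and 7.63) gave 0.29 and 0.11, neither passing. From DAPT to Fc beads 22 of 27 rose, where 11.5% of all genes did. From Fc to JAG1-Fc beads 6 rose and 4 fell, against 2.96% and 5.14% of all genes. Of 26 NF-kB and cytokine genes, 10 rose and none fell (median 0.06), against 17.0% and 16.1% of all genes. With Fc beads 15 were higher than with DAPT (11.5% of all genes) and with control IgG, after the same washout and without beads, 5 were (4.15%). From Fc to JAG1-Fc beads none rose (2.96% of all genes) and 3 fell (5.14%). RELB, an NF-kB subunit, was 0.96 above DAPT with JAG1-Fc beads and 1.09 above it with Fc beads. NFKBIZ, which was not in this list, was among the 20 largest falls from DAPT to JAG1-Fc beads, at -2.12.

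Interferon-stimulated genes divided. Of 28 measured, 11 fell and 1 rose, with a median of -0.09, where 16.1% of all genes fell and 17.0% rose. Without _x_at and _s_at probe sets 6 of 23 fell, with a median of -0.03, and over the 14 above the median level the median was -0.26. ISG15, a ubiquitin-like protein, measured 10.60, 10.50 and 10.63 with DAPT, 10.32, 10.42 and 10.18 with Fc beads and 9.70, 9.78 and 9.82 with JAG1-Fc beads, a fall of 0.81. OAS1, an antiviral RNA sensor, changed by -1.42, and IFI44 by -1.27. A dim IFI44 probe set (mean 5.10), not shared among transcripts, was at -0.07. Between Fc and JAG1-Fc beads 12 of the 28 fell and none rose, where 5.14% of all genes fell and 2.96% rose. From DAPT to Fc beads 4 fell and 1 rose, where 9.65% of all genes fell and 11.5% rose, so the 4 are not far from that share.

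Of 25 genes of G2 and mitosis, 16 rose, none fell and 9 did not pass (median 0.27). Of all genes, 17.0% rose and 16.1% fell. CENPE, a kinetochore motor, was at 0.70, the proliferation marker MKI67 at 0.60 and TOP2A, the mitotic topoisomerase, at 0.60. Without _x_at and _s_at probe sets 10 of 21 rose, with a median of 0.17, and with quantile normalisation repeated 20 of 25 rose and 1 fell. Between Fc and JAG1-Fc beads 12 of the 25 rose and none fell, where 2.96% of all genes rose and 5.14% fell. Of 25 genes of G1/S and replication, 13 rose and 6 fell (median 0.25), against 17.0% and 16.1% of all genes. Without _x_at and _s_at probe sets 8 of 19 were higher and 4 lower (median 0.16). CCND1, cyclin D1, measured 8.62, 8.55 and 8.74 with DAPT and 10.03, 9.91 and 10.08 with JAG1-Fc beads, with no overlap, and rose by 1.37. CCNE2, cyclin E2, fell by 0.60.

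**Figure D4:**
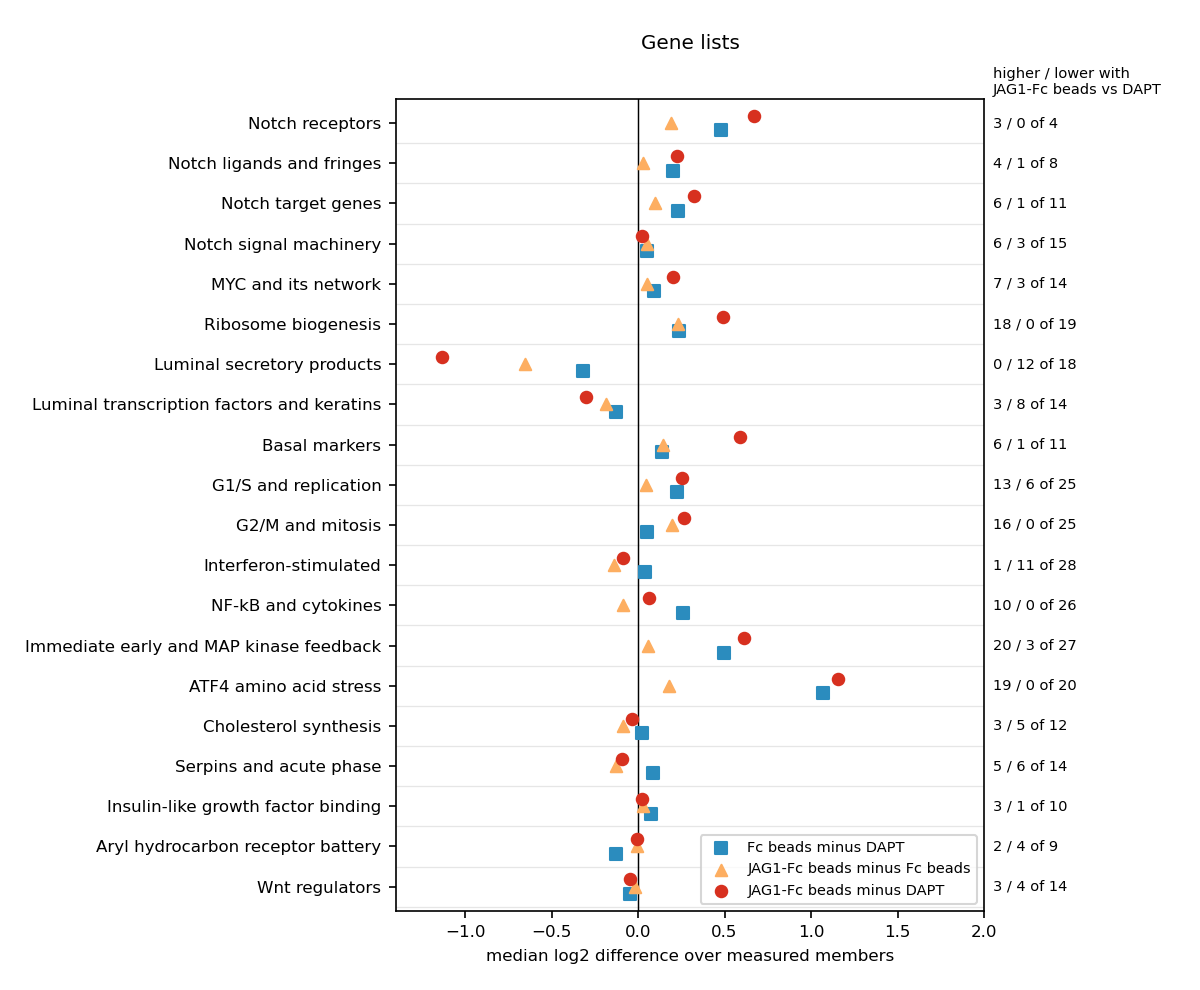
Median log2 difference of each gene list for JAG1-Fc beads against DAPT (circles), Fc beads against DAPT (squares) and JAG1-Fc beads against Fc beads (triangles), with the counts higher and lower in the first at right. The ATF4 list has medians of 1.15, 1.07 and 0.18, and the luminal secretory list of -1.13, -0.32 and -0.66; these comparisons share arrays.

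A second experiment on the same line shares no arrays with this one. There, cells held for 24 h in control IgG at 10 µg/ml with 0.05% DMSO (3 arrays) were set against cells in 5 µM DAPT with that IgG (3 arrays), with no earlier DAPT, washout or beads. It called 70 genes (0.354%). Of its 30 genes higher in the control than with DAPT (0.152%), 20 were higher with JAG1-Fc beads (66.7% of the 30 and 0.594% of the 3366 rises), 7 did not pass and 3 were lower. Of its 40 genes lower in the control (0.202%), 38 were lower with JAG1-Fc beads (95.0% of the 40 and 1.19% of the 3190 falls) and 2 did not pass. Over all genes the shares were 17.0% and 16.1%. Of the 20 largest rises, OLFM4, ID4, GAS1, MYC, NRP1, SERPINA3 and NOTCH3 were among the 30, and of the 20 largest falls, IGFBP5, AGR2, CYP4Z2P, CLCA2, TMPRSS11E and CYP4Z1 were among the 40. The number called in that experiment ranged from 11 to 1198 with 1 array left out.

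**Figure D5:**
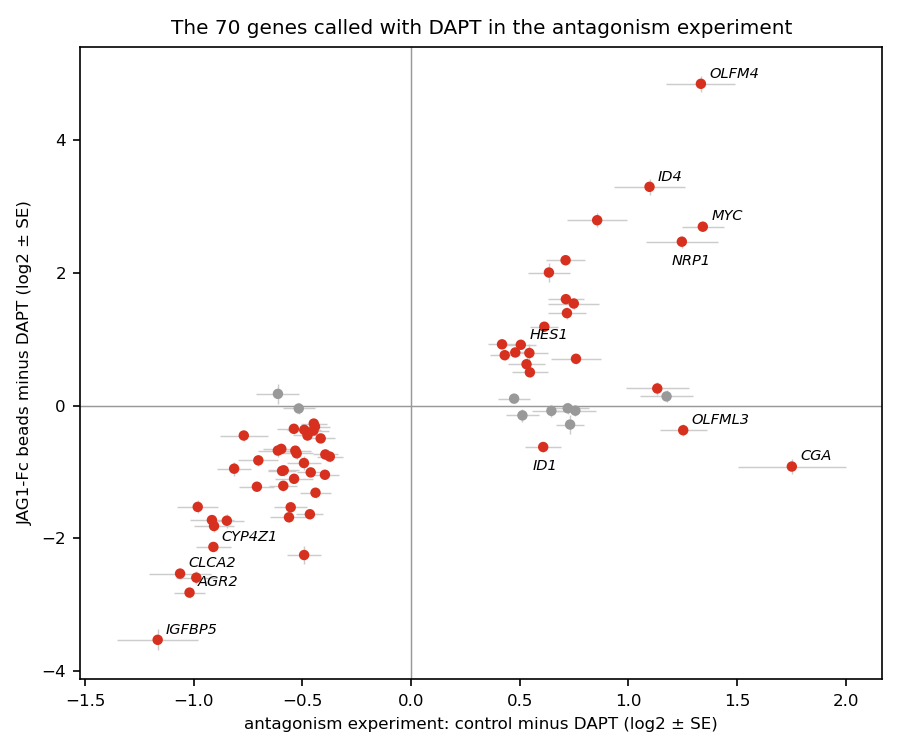
Log2 difference between JAG1-Fc beads and DAPT (vertical) against the difference between control and DAPT in the other experiment (horizontal), both ± SE, for the 70 genes called in the latter, in red where JAG1-Fc beads were also called. The 40 genes on the left all but 2 passed as lower with JAG1-Fc beads, and CGA, ID1 and OLFML3 lie at lower right.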

How the data were processed

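The authors deposited 1 linear intensity per probe set and array (Affymetrix arrays, biotin-labelled cRNA per the labels), from 7.12 to 32597. RMA and R 2.10 are named, with no roles, per the submitters' processing notes. RMA makes arrays alike in distribution, so a change moving most genes 1 way would be reduced. Intensities were converted to log2. Of 54675 probe sets, 41091 had 1 gene symbol, 1801 several and 11777 none. Each gene took its brightest single-gene probe set over 26 arrays (19775 genes); none was filtered for low level.

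The 18 agonism arrays (6 groups of 3, A13 included) were fitted together with limma 3.58.1 (lmFit, eBayes, R 4.3.3, 12 residual degrees of freedom), and the 8 antagonism arrays separately (5). The 8 include 2 arrays of cells given another NOTCH3 antibody, which are not compared here. Benjamini-Hochberg adjustment ran over the 19775 genes, with calls under 0.05; the median SE was 0.081. The number of arrays limits precision. The procedure was tested on simulated data. Replicate arrays differed with an SD of 0.15 to 0.18 in the JAG1-Fc and DAPT groups.

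Named genes are the 20 largest rises and falls without overlap, all Notch pathway members, MYC and up to 5 called members of each other list. Members and lists were chosen with earlier results of these data known. List counts are over measured members; others are not analysed here. Alternatives covered groups in the fit, centring, quantile normalisation, probe sets, pseudocount, low genes, eBayes options and each array left out.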

Additional observations from a re-analysis of the deposited data

Results flagged for a closer look

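3 genes were higher in the control than with DAPT in the antagonism experiment and lower with JAG1-Fc beads than with DAPT in the agonism experiment, with no overlap of arrays in either. They were chosen after their values were seen. The difference between the experiments was not tested, and the contrasts are not alike. CGA, the common subunit of glycoprotein hormones, differed by 1.75 in the antagonism experiment and by -0.92 with JAG1-Fc beads, and by -1.03 with Fc beads alone. ID1, an inhibitor of helix-loop-helix factors, differed by 0.61 and by -0.62, and by -0.12, not passing, with Fc beads. OLFML3, a secreted olfactomedin-like protein, differed by 1.25 and by -0.37, and by -0.60 with Fc beads. OLFML3 was also lower with JAG1-Fc beads than in the DMSO group, by -0.996.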

How the results depend on the processing

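The count of 6556 genes kept within 1.5 times under every alternative run, and lay between 5649 and 6056 with 1 array left out. The other counts, with 1 array left out, lay between 3162 and 3866 for Fc beads against DAPT, 897 and 1447 for JAG1-Fc against Fc beads, 6824 and 8210 for JAG1-Fc beads against DMSO, 1054 and 1793 for control IgG against DAPT, and 11 and 1198 in the antagonism experiment. JAG1-Fc against Fc beads gave 897 without Fc replicate 2 and 1059 without JAG1-Fc replicate 1; IgG against DAPT gave 1101 without IgG replicate 2 and 1054 without DAPT replicate 1. Leaving out _x_at and _s_at probe sets (fewer genes), the counts were 2742 for Fc beads against DAPT, 968 for JAG1-Fc against Fc beads, 1203 for IgG and 41 for antagonism. With only the groups compared in the fit (fewer samples) they were 907, 1141 for IgG and 18 for antagonism, and median centring gave 109 for antagonism.

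Of 127 named genes that passed, 104 kept the call in each of the 14 alternatives that included them. Not all were in every run. MYC and OLFM4, with _s_at probe sets only, were absent without _x_at and _s_at probe sets. Genes below the median level were absent from the run that left low genes out. Without _x_at and _s_at probe sets HES1 (-0.11), RBPJ (-0.11), CENPF (-0.11) and PARP9 (0.0069) changed direction without passing. Those probe sets were dimmer than the main ones, with means of 6.14, 4.62, 5.93 and 7.20 in that order. DLL1 (-0.041) also changed direction with the mean of its probe sets. The cause was not tested. No paired analysis was possible because the labels give no replicate numbers.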

Other observations

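In further gene groups, members were called in both directions between JAG1-Fc beads and DAPT, against 17.0% of all genes higher and 16.1% lower. Of 14 Wnt regulators, 3 rose, close to the share of all genes, and 4 fell. The Wnt inhibitor DKK1 measured 10.90, 11.02 and 10.87 with DAPT and 8.49, 8.51 and 8.83 with JAG1-Fc beads, a difference of -2.32, and the ligand WNT5A fell by 1.59. AXIN2, a feedback inhibitor induced by Wnt, rose by 0.85, the receptor FZD7 by 0.74 and the receptor-degrading ligase ZNRF3 by 0.68. Of 14 serpin and acute phase genes, 5 rose and 6 fell. The protease inhibitor SERPINA3 rose by 2.19 and complement C3 by 0.85, while the fibrinogen chains FGG (-2.20) and FGB (-1.42) and ceruloplasmin (CP, -1.02) fell.

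Of 9 genes of the aryl hydrocarbon receptor battery, 2 rose and 4 fell. The receptor gene AHR rose by 1.18. Its targets CYP1A1 and ALDH3A1, enzymes of xenobiotic and aldehyde breakdown, fell, with differences of -2.08 and -1.46. CYP1A1 was lower than with DAPT by -1.93 with Fc beads and by -2.13 with control IgG, which share the DAPT arrays. Of 12 measured genes of cholesterol synthesis, 3 rose and 5 fell, from HMGCS1, which makes HMG-CoA, at 0.49 to the desaturase SC5D at -0.64, which was at -0.19, not passing, without _x_at and _s_at probe sets. Of 10 genes of the insulin-like growth factor group, IGF2R, IGF1R and IGFBP3 rose by 0.66, 0.39 and 0.28, and IGFBP5 alone fell; the call of IGFBP3 was lost with any of 5 single arrays left out.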
